A study of Homo sapiens with 12 samples.

Results

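Messenger RNA of 8 transcription factors of the lung and foregut lineages was measured in 2 lung cancer cell lines, with and without overexpression of VGF. The genes were NKX2-1, FOXA1, FOXA2, FOXA3, GATA6, HNF4A, HNF4G and TP63. They were taken by name and not by their values, and their rows were 8 of the 26535 features in the count and FPKM tables. A549 is an established human lung adenocarcinoma line, and H1299 (NCI-H1299 in the labels) is an established human non-small-cell lung carcinoma line. VGF encodes a secreted neuroendocrine precursor protein. Each line carried either an empty vector lentivirus, with the genotype label WT, or a VGF lentivirus, with the genotype label VGF-OE. The 4 groups held 3 libraries each, described by the submitters as biologically independent. All 12 libraries therefore came from cells given a lentivirus. A free-text treatment note names the empty vector for all 12 libraries, so groups were taken from the titles and characteristics. A549 was grown in DMEM/F12 and H1299 in RPMI-1640, so line and medium cannot be told apart. The sources used here give neither the promoter of the vector nor whether the cells were clones or pools.

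NKX2-1 is the homeodomain factor that specifies lung from the foregut endoderm and drives surfactant and club cell genes. FOXA1, FOXA2 and FOXA3 are forkhead pioneer factors that open chromatin in endoderm. GATA6 is a zinc finger factor of endoderm and distal lung, and HNF4A and HNF4G are nuclear receptors of liver, gut and kidney epithelium. TP63 encodes p63, a p53 relative that maintains basal and squamous epithelium. In lung adenocarcinoma, NKX2-1 marks alveolar-type tumours, and gut-type or gastric-type programmes with HNF4A are known from tumours that lack it.

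Counts were tested with the quasi-likelihood test of edgeR in a fit of all 12 libraries, and a gene was called at a Benjamini-Hochberg adjusted p under 0.05 over 18228 tested features. CPM is the count scaled by library size and composition. FPKM, which also divides by transcript length, was used to compare levels between genes. Values are mean ± SD of 3 libraries, and fold changes are on the log2 scale with their standard error (SE). Library totals ran from 31378171 to 41919484 counts. VGF rose from 2.43 ± 0.373 to 1283 ± 80.1 CPM in A549 and from 85.6 ± 7.26 to 980.1 ± 119 CPM in H1299.

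The epithelial identity of the lines was checked on 6 markers. In A549 controls CDH1 was at 84.4 ± 5.89 CPM, KRT7 at 1051 ± 37.4 CPM and KRT8 at 3696 CPM. EPCAM was low there, at 0.584 ± 0.0823 CPM, and KRT19 was at 5.17 CPM in A549 with VGF. H1299 controls held KRT8 at 471 ± 29.2 CPM and KRT18 at 585 ± 13.0 CPM. CDH1 had 0 counts in all 6 H1299 libraries. With empty vector, 5 of the 6 markers were called lower in H1299, against 38.6% of all tested features. None was called higher. KRT7 was 858-fold and KRT8 7.85-fold lower. Some libraries stood apart. In H1299 control library 2, transcripts of 55 genes of the other line summed to 0.0965% of their A549 level, against 0.00989% to 0.0132% in the other 5 H1299 libraries. In A549 VGF library 2, 31 genes of H1299 summed to 0.179% of their H1299 level, against 0% to 0.0494% in the other 5. Of the 55 genes, 38 had a count in H1299 control library 2. Only 10 of the 31 had one in A549 VGF library 2, against 15 in A549 control library 1. For the 8 factors, fold changes between lines with empty vector and for VGF in H1299 are given with and without H1299 control library 2. Levels, shares and medians of H1299 controls include it unless stated. Without it the mean of the H1299 controls went from 0.113 to 0.0446 CPM for HNF4A and from 5.04 to 6.27 CPM for HNF4G.

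In A549 with empty vector, FOXA2 and HNF4A were the most abundant of the 8 mRNAs. FOXA2 stood at 13.7 ± 1.02 FPKM and HNF4A at 11.5 ± 2.05 FPKM, and the libraries of these 2 genes overlapped. FOXA1 followed at 2.65 ± 0.193 FPKM, GATA6 at 1.96 ± 0.305 FPKM and HNF4G at 1.54 ± 0.143 FPKM, with no overlap between neighbours in this order. TP63 at 0.218 ± 0.0416 FPKM, FOXA3 at 0.164 ± 0.0860 FPKM and NKX2-1 at 0.0661 ± 0.0449 FPKM came last, and each overlapped its neighbour. FOXA2 lay above 76.7% of 19974 annotated genes in mean FPKM, HNF4A above 73.6% and NKX2-1 above 30.0%.

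H1299 with empty vector had another order. GATA6 led at 5.36 ± 0.542 FPKM, above 59.2% of annotated genes, and HNF4G followed at 1.69 ± 0.245 FPKM. These were separated from each other and from the rest. FOXA1 at 0.378 ± 0.0994, FOXA2 at 0.259 ± 0.0421 and FOXA3 at 0.212 ± 0.0172 FPKM overlapped one another in turn. NKX2-1 at 0.0638 ± 0.0420, TP63 at 0.0552 ± 0.0328 and HNF4A at 0.0165 ± 0.0178 FPKM overlapped in turn at the bottom. With VGF the order in H1299 was the same. In A549 with VGF, HNF4A at 15.5 ± 0.672 FPKM stood above FOXA2 at 13.3 ± 0.640 FPKM without overlap, and NKX2-1 came before FOXA3 with overlap.

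**Figure D1:**
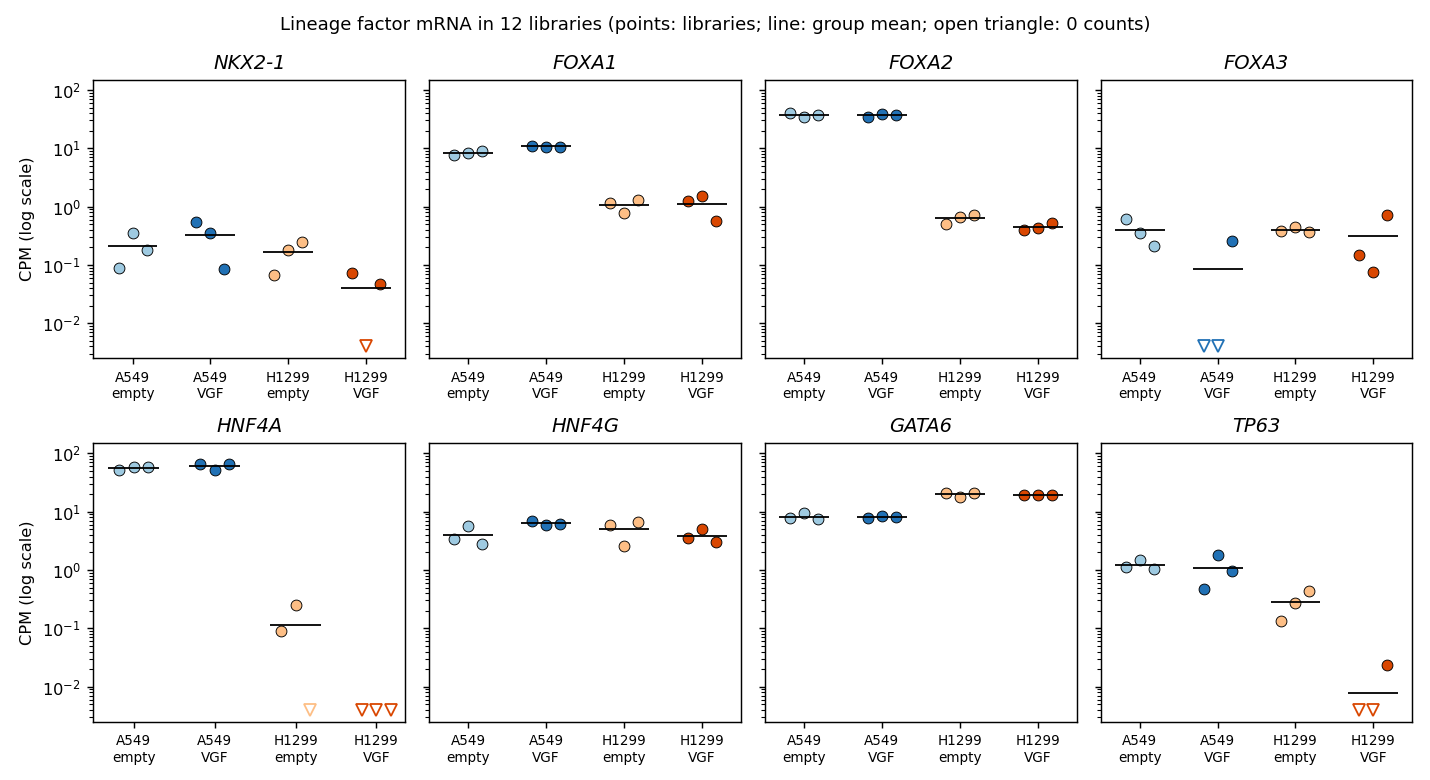
CPM of the 8 factors on a log scale in each of the 12 libraries, by line and vector. Points are libraries, horizontal lines are group means, and open triangles at the bottom are libraries with 0 counts. FOXA1, FOXA2 and HNF4A are high in A549 and low in H1299, while GATA6 is higher in H1299.

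The 2 lines were compared with empty vector. H1299 differed from A549 in 5 of the 8 factors, of which 4 were lower and 1 was higher. That is 62.5% of the factors, against 77.2% of all tested features called in this comparison (38.5% higher and 38.6% lower). The share of called factors was thus not above the background. The median log2 fold change of the 8 was -1.23, against 0.01 over all tested features. With VGF in both lines, 6 of 8 factors were called, 5 lower and 1 higher, against 77.3% of all features (38.2% higher and 39.1% lower). The median of the 8 was -3.10 there, against -0.01 over all features. With empty vector the median lay between TP63 (-2.12) and NKX2-1 (-0.35). With VGF it lay between FOXA1 (-3.28) and NKX2-1 (-2.92). The shift of the median thus rests on NKX2-1 and TP63, which had few counts. Without H1299 control library 2, the same 5 factors were called with empty vector. Their log2 fold changes there were -5.92 for FOXA2, -2.74 for FOXA1 and 1.34 for GATA6, with HNF4A and TP63 given below. The factors not called were at -0.42 for NKX2-1, -0.078 for FOXA3 and 0.66 for HNF4G (adjusted p = 0.0709). Both line comparisons are of 1 line against 1 line, and their p-values measure the spread between libraries, not between tumours.

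NKX2-1 (ENSG00000136352, GRCh38 chromosome 14, 36516392 to 36521149, minus strand) was close to the limit of counting in both lines. Its counts in A549 were 3, 12 and 6 in control libraries and 16, 14 and 3 in VGF libraries. In H1299 it had 3, 8 and 10 counts in controls and 3, 0 and 2 with VGF. The groups overlapped in A549 and in H1299, and the lowest H1299 control library equalled the highest H1299 VGF library in counts. With empty vector the lines did not differ by the test (log2 fold change -0.35, SE 0.900, adjusted p = 0.735). With VGF, NKX2-1 was lower in H1299 by -2.92 (adjusted p = 0.0192), a call that rests on 5 counts against 33. That call was lost on FPKM values, at an adjusted p of 0.101 with a pseudocount of 1. It was also lost without A549 VGF library 1 (adjusted p = 0.0822), H1299 VGF library 2 (0.0652) or H1299 VGF library 3 (0.0518). Of the exonic bases of NKX2-1, 12.7% are shared with NKX2-1-AS1 on the opposite strand, and whether counting used strand is not given in the sources used here.

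Some genes that NKX2-1 is known to drive were singled out here outside the naming rule and after their values were seen. NAPSA, an aspartic protease gene of alveolar type II cells, had 89 counts over the A549 controls and 35 over the H1299 controls. ABCA3, a surfactant lipid transporter gene, was at 106 ± 10.8 CPM in A549 controls and 78.7 ± 4.58 CPM in H1299 controls. Among the surfactant protein genes, SFTPB had 0 counts in the A549 controls and 0 in all 6 H1299 libraries. SFTPC had 25 counts over the 3 A549 control libraries and 0 counts in both H1299 groups. SCGB1A1, the club cell secretory protein gene, had 0 counts in the controls of both lines. SFTA3, which lies 2563 bases from NKX2-1, was listed at 0 FPKM in all 4 groups. Counts of 0 allow a level of up to 0.0297 CPM over the A549 control libraries and up to 0.0231 CPM over the H1299 control libraries.

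FOXA2 (ENSG00000125798, chromosome 20, 22581005 to 22585455, minus strand) showed one of the clearest line differences. It had 1392, 1170 and 1249 counts in A549 controls and 23, 29 and 30 in H1299 controls. The libraries were far apart, at 37.7 ± 2.79 CPM against 0.633 ± 0.110 CPM. The log2 fold change was -5.89 (SE 0.132, adjusted p = 4.78e-13), a 59.4-fold lower level in H1299. With VGF in both lines it was -6.35 (adjusted p = 3.64e-13).

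FOXA1 (ENSG00000129514, chromosome 14, 37589984 to 37596059, minus strand) was also lower in H1299, by less. Its counts were 268, 274 and 298 in A549 controls and 52, 34 and 54 in H1299 controls, with no overlap in CPM (8.31 ± 0.592 against 1.08 ± 0.279). The log2 fold change was -2.94 (SE 0.304, adjusted p = 1.25e-06), or 7.68-fold lower. FOXA3 (ENSG00000170608, chromosome 19, 45863989 to 45873797, plus strand) was low in both lines, with 21, 12 and 7 counts in A549 controls and 17, 20 and 15 in H1299 controls. Its libraries overlapped, and the log2 fold change of 0.02 was not called (adjusted p = 0.987). With VGF in both lines FOXA3 had a log2 fold change of 1.80 (adjusted p = 0.169). It was called without A549 VGF library 3, which held all 9 of the counts in that group (adjusted p = 0.0061).

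The make-up of the FOXA family therefore differed between the lines. FOXA2 made up 82.9 ± 1.48% of the summed FOXA FPKM in A549 controls, FOXA1 16.1 ± 1.84% and FOXA3 0.983 ± 0.479%. The family sum was 16.5 ± 0.945 FPKM. In H1299 controls the sum was 0.848 ± 0.114 FPKM, of which FOXA1 made up 44.2 ± 7.72%, FOXA2 30.6 ± 4.23% and FOXA3 25.2 ± 3.97%. In the HNF4 pair, HNF4A made up 88.0 ± 1.91% in A549 controls and 1.06 ± 1.18% in H1299 controls. HNF4G held the remainder.

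**Figure D2:**
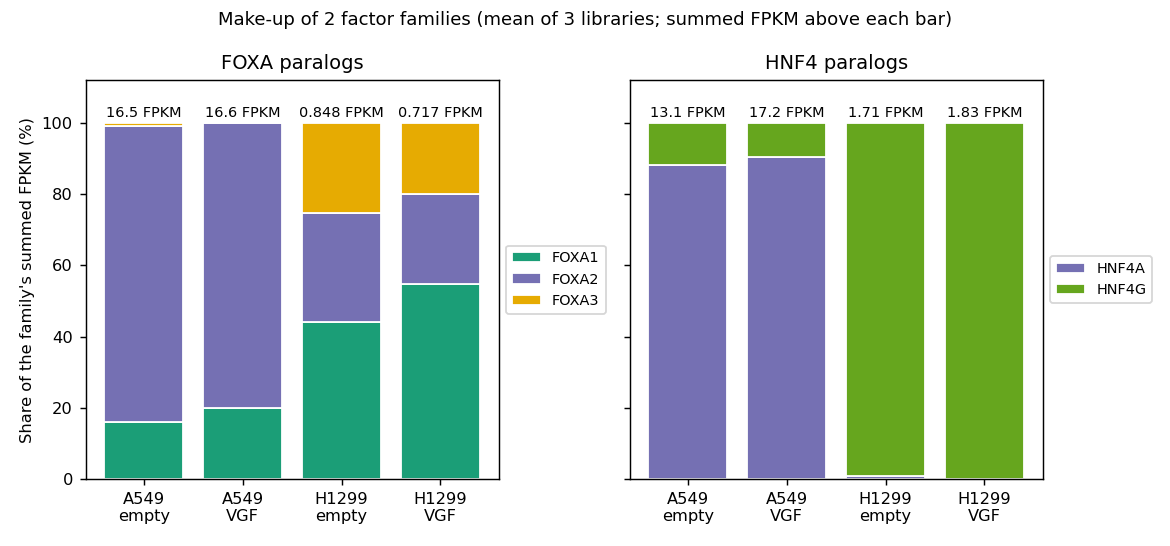
Share of each paralog in the summed FPKM of the FOXA family (left) and the HNF4 pair (right), as stacked bars of group means in percent, with the summed FPKM above each bar. FOXA2 and HNF4A fill most of the A549 bars, at 82.9% and 88.0% with empty vector, and little of the HNF4 bars of H1299 is HNF4A.

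HNF4A (ENSG00000101076, chromosome 20, 44355700 to 44434596, plus strand) had the largest line difference of the 8. It had 1797, 1989 and 1959 counts in A549 controls, and 4, 11 and 0 in H1299 controls. The highest of these H1299 values, 0.249 CPM, was in H1299 control library 2, the library with most transcripts of the other line. Mean levels were 56.9 ± 3.96 and 0.113 ± 0.126 CPM, and the log2 fold change was -8.91 (SE 0.301, adjusted p = 2.92e-10). Without that library it was -10.15 (adjusted p = 1.44e-09). With VGF, HNF4A had 1959, 2045 and 2269 counts in A549 and 0 in each H1299 library. The latter level was at least 2520-fold lower than in A549, set against a floor of 3 counts over the group (0.0244 CPM).

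HNF4A is transcribed from more than one promoter, and 2 of its windows are shown because its mRNA was abundant in 1 line and near 0 in the other. The RefSeq promoter table (GRCh38.p14) held entries for 6 of the 8 factors, all but FOXA2 and HNF4G. Each window is the 250 bases before a transcript start, and all those shown lie outside the annotated exons of their gene. The first lies at chr20:44355449-44355698 and the second at chr20:44400989-44401238, both on the plus strand. Capitals mark a match to the GATA motif AGATAA.

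HNF4A window 1: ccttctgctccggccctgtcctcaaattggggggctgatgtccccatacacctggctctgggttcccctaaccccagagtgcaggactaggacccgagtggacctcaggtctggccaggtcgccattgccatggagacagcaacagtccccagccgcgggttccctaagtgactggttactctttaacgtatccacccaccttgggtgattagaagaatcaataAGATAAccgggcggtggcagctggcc
HNF4A window 2: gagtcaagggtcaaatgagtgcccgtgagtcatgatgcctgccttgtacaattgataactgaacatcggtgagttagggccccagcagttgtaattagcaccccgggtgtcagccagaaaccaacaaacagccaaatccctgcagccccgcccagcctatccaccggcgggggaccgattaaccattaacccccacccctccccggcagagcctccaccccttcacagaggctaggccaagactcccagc

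Motif letters were searched on both strands. AGATAA was found in window 1 of HNF4A, 26 bases before the start, and in 9.21% of 34788 promoter windows of the table. Window 2 of HNF4A held no match to it or to the other motifs given here. These were the FOXA motif TGTTTAC (2.98% of windows), the HNF4 motif CAAAGTCCA (0.328%), the NKX2 motif CAAGTG (9.52%) and TATAAA (10.8%). Neither window of HNF4A was rich in CpG, with 8 CpG each against a median of 11. The windows of FOXA1 and FOXA3 held 26 and 28, and that of GATA6 held 16. A match describes the letters and is no evidence of binding.

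HNF4G (ENSG00000164749, chromosome 8, 75407914 to 75566843, plus strand) was present in both lines. It had 115, 193 and 93 counts in A549 controls and 262, 113 and 276 in H1299 controls. The libraries overlapped at 3.97 ± 1.58 and 5.04 ± 2.19 CPM, and the log2 fold change of 0.34 was not called (adjusted p = 0.389). The 95% interval of that fold change ran from -0.43 to 1.11. The overlap in CPM rested on H1299 control library 2. Without it the H1299 controls were at 5.84 and 6.71 CPM, above the A549 controls at 2.80 to 5.76 CPM. On FPKM the same libraries still overlapped, at 1.64 and 1.96 in H1299 and 1.42 to 1.70 in A549. The edgeR adjusted p was then 0.0709.

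For HNF4G the 2 deposited scales differed. CPM varied 2.47-fold over the 6 A549 libraries while FPKM varied 1.28-fold, and in H1299 the values were 2.62-fold and 1.41-fold. The transcript length implied by counts and FPKM ran from 1831 to 3867 bases across libraries. This spread, a highest value 2.11 times the lowest, was larger than that of 98.6% of 10633 genes with at least 50 counts in every library, whose median was 1.07. GATA6, also above that minimum in every library, was at 1.07. With VGF in both lines, HNF4G CPM was lower in H1299 without overlap, by -0.71 on the log2 scale, and was not called (adjusted p = 0.0848). Without H1299 control library 2 the adjusted p was 0.0372, although that library is in neither group, and on FPKM the sign was the opposite. Differences of HNF4G in counts are therefore given with their FPKM value below.

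**Figure D3:**
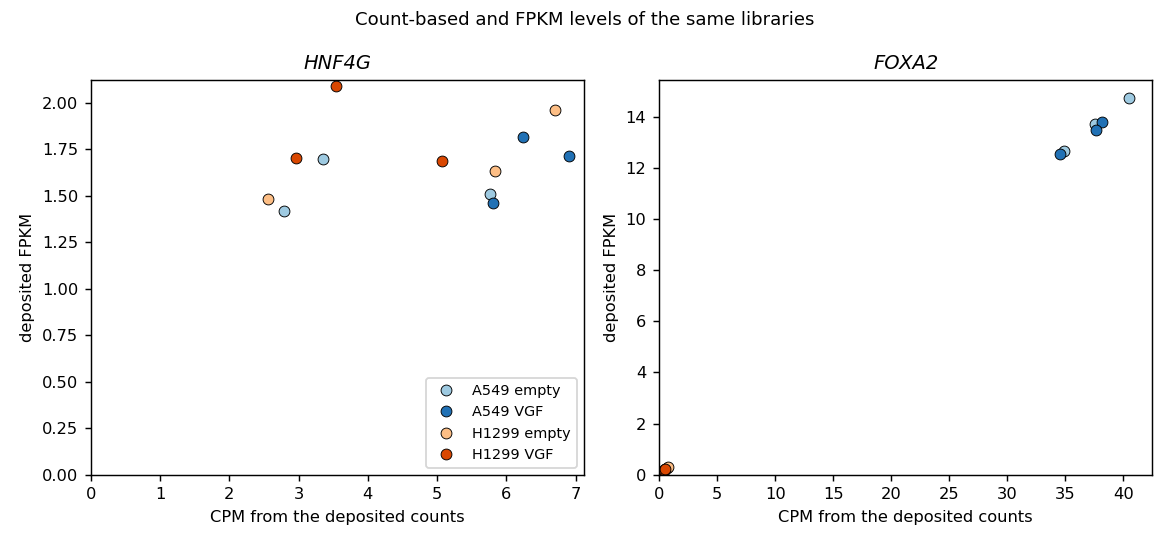
Deposited FPKM against CPM from the deposited counts for HNF4G (left) and FOXA2 (right), with 1 point per library, coloured by line and vector, and both axes starting at 0. FOXA2 lies on 1 line through the origin, whereas HNF4G libraries with CPM from 2.56 to 6.90 all lie between 1.42 and 2.09 FPKM.

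GATA6 (ENSG00000141448, chromosome 18, 22169443 to 22202528, plus strand) was the factor with a higher level in H1299. It had 266, 323 and 246 counts in A549 controls and 943, 778 and 851 in H1299 controls. The libraries did not overlap, at 8.26 ± 1.21 and 19.8 ± 1.86 CPM, and the log2 fold change was 1.26 (SE 0.117, adjusted p = 4.12e-07), or 2.39-fold. With VGF it was 1.23 (adjusted p = 5.51e-07). Of its exonic bases, 14.2% overlap GATA6-AS1 and AC091588.3 on the opposite strand, so if counting ignored strand, its counts can hold reads of these genes.

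TP63 (ENSG00000073282, chromosome 3, 189631416 to 189897279, plus strand) was low in both lines. It had 39, 50 and 35 counts in A549 controls and 6, 12 and 18 in H1299 controls, without overlap (1.23 ± 0.234 and 0.281 ± 0.152 CPM). The log2 fold change was -2.12 (SE 0.612, adjusted p = 0.00673), or 4.34-fold lower in H1299. Without H1299 control library 2 it was -2.09 (adjusted p = 0.0235). With VGF, 120 counts in A549 stood against 1 in H1299, a ratio of 143 per unit of library size with a 95% counting interval from 25.2 to 5695 (adjusted p = 2.09e-05 by edgeR). GENCODE release 29 lists 14 transcripts from 8 starts for TP63, and gene-level counts do not separate its long and short isoforms. KRT5, a basal keratin gene singled out after its values were seen, had 5 counts over the A549 controls and 0 in all H1299 libraries.

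The TP63 window, at chr3:189631139-189631388 on the plus strand, is shown because TP63 had the smallest p of the 8 under VGF, described below. Capitals mark a match to the NKX2 motif CAAGTG, 192 bases before the start.

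TP63 window 1: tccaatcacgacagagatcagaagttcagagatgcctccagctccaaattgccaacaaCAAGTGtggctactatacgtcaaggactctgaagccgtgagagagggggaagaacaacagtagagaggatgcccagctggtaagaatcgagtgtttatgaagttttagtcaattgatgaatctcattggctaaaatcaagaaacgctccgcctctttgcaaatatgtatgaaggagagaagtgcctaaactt

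The window held 6 CpG. The windows of the other matched factors overlap annotated exons and are described only by their matches. The first NKX2-1 window held TGTTTAC at 130, AGATAA at 100 and CAAGTG at 147 bases before its start, and a second window held none of the motifs given. The FOXA1 window held CAAGTG on the minus strand, the FOXA3 window held TATAAA 30 bases before the start, and the GATA6 window held none.

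The effect of VGF was tested within each line. In A549, none of the 8 factors was called, against 0.79% of all tested features (144 genes). No factor had an unadjusted p under 0.05, against 2528 of the 18228 features tested. In H1299, none of 8 was called, against 0.011% of features (2 genes). There, 3 of 8 factors had an unadjusted p under 0.05, against 1422 of 18228 features. By DESeq2, 0 were called in A549, against 2.67% of the 26535 features, and 2 in H1299, against 0.497%. The median log2 fold change of the 8 was 0.05 in A549 and -0.44 in H1299, against 0.00 and -0.01 over all features. Libraries of the 2 vectors did not overlap in CPM for 2 of 8 factors in A549 (FOXA1 and HNF4G), against 18.4% of features. In H1299 this held for 1 of 8 (TP63), against 12.7% of features.

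**Figure D4:**
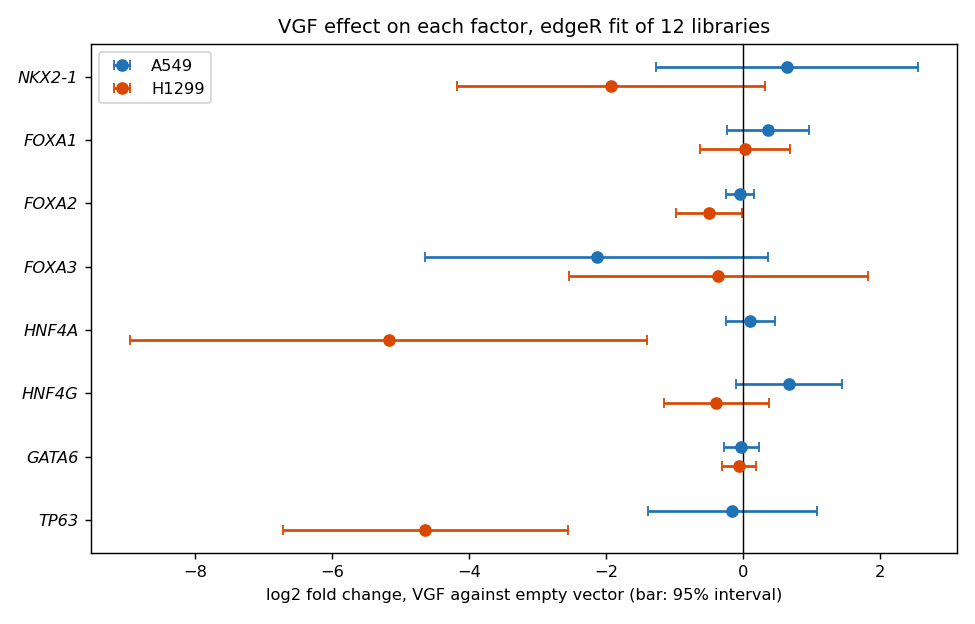
Log2 fold change of VGF against empty vector for each factor in A549 (blue) and H1299 (orange) from the edgeR fit of 12 libraries, with 95% intervals as bars. Most intervals cross 0, that of GATA6 is narrow in both lines, and those of FOXA2, HNF4A and TP63 in H1299 lie below 0 although none of these was called after adjustment. The fitted HNF4A value in H1299 depends on the prior count, since its VGF libraries hold 0 counts.

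In A549, FOXA2 had 1010, 1492 and 1308 counts with VGF and 36.8 ± 1.96 CPM, which overlapped the controls. Its log2 fold change was -0.03 with a 95% interval from -0.24 to 0.17. GATA6 had 228, 335 and 280 counts with VGF, and its change of -0.02 had an interval from -0.28 to 0.24. The intervals of these 2 genes thus held no change beyond 0.28 on the log2 scale in either direction.

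FOXA1 had 319, 417 and 371 counts in A549 with VGF. All 3 libraries, at 10.7 to 10.9 CPM, lay above the 3 controls, at 7.80 to 8.96 CPM. The change of 0.37 (SE 0.274) was not called (adjusted p = 0.624). HNF4G had 202, 227 and 217 counts with VGF, and its 6.32 ± 0.555 CPM also lay above the controls in 9 of 9 pairs of libraries. The change of 0.67 (SE 0.356) was not called (adjusted p = 0.437). On FPKM the HNF4G libraries overlapped, at 1.54 ± 0.143 and 1.67 ± 0.183.

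HNF4A in A549 had the reverse pattern. Its CPM overlapped between vectors, at 56.9 ± 3.96 and 61.5 ± 8.04, with a change of 0.11 (adjusted p = 0.858). Its FPKM ran from 9.89 to 13.8 in controls and from 14.7 to 15.9 with VGF, without overlap. A limma fit on log2(FPKM + 1) gave 0.41 for it, which was not called (adjusted p = 0.0865). The implied HNF4A length over A549 libraries ran from 3315 to 5597 bases, and GENCODE lists 9 HNF4A transcripts from 6 starts.

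The 3 scarce factors gave wide intervals in A549. FOXA3 had 0, 0 and 9 counts with VGF, and its change of -2.14 had an interval from -4.63 to 0.36 (adjusted p = 0.446). The value of NKX2-1 was 0.65 with an interval from -1.27 to 2.56. TP63 had 14, 72 and 34 counts with VGF, and its change of -0.15 had an interval from -1.39 to 1.09. The 72 counts came from A549 VGF library 2. That library also held a summed 385 CPM of 10 endothelial markers, against 38.7 and 43.6 CPM in the other VGF libraries and 31.1 to 32.6 CPM in controls. All 10 markers had a count there, as they did in A549 VGF library 1. Without A549 VGF library 2, TP63 had a log2 fold change of -0.74 (adjusted p = 0.792). The part of those markers in the TP63 level was not tested.

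In H1299, TP63 had the smallest p of the 8. It had 6, 12 and 18 counts in controls and 0, 0 and 1 with VGF, so the groups did not overlap. The 36 summed control counts against 1 give a ratio of 34.0 per unit of library size, with an exact 95% counting interval from 5.73 to 1380 that leaves out the spread between libraries. The edgeR log2 fold change was -4.64 (SE 0.960), with an unadjusted p of 0.000373 and an adjusted p of 0.148. It ranked 45 of all features by p and was not called. Without H1299 control library 2, edgeR gave -4.65 (adjusted p = 0.262). DESeq2 called TP63 with all libraries (-4.99, adjusted p = 0.0338) and not without that library (-5.02, adjusted p = 0.0640).

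HNF4A in H1299 had 4, 11 and 0 counts in controls and 0 in all 3 VGF libraries, with 1 control library equal to the VGF libraries. The control mean was 4.62 times the floor of 3 counts over the VGF group, or 1.83 times without library 2. That floor bounds the VGF group only. The counting error of the few control counts is left out, so these ratios are not minimum folds. HNF4A was not called by edgeR (adjusted p = 0.50). DESeq2 called it with all libraries (adjusted p = 0.0300) and not without H1299 control library 2 (adjusted p = 0.425), which held 11 of the 15 control counts. Without that library edgeR gave an adjusted p of 0.757. The part of transcripts from the other line in those 11 counts was not tested.

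None of the remaining factors was called in H1299. FOXA2 had 16, 17 and 22 counts with VGF against 23, 29 and 30 in controls, and in CPM the VGF library was the higher one in 1 of 9 pairs. Its change of -0.49 (SE 0.224) was not called (adjusted p = 0.636), and it was -0.46 without H1299 control library 2. GATA6 had 773, 759 and 809 counts with VGF, and its change of -0.05 had an interval from -0.30 to 0.19, and it was -0.13 without that library. FOXA1 had 51, 60 and 24 counts and its change was 0.04, with an interval from -0.63 to 0.70. FOXA1 was -0.16 without H1299 control library 2, which held its lowest control value.

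HNF4G in H1299 had 144, 202 and 126 counts with VGF and a log2 fold change of -0.38 (adjusted p = 0.916), or -0.70 without H1299 control library 2 (adjusted p = 0.737). On FPKM it was 1.69 ± 0.245 in controls and 1.83 ± 0.229 with VGF, in the other direction. The value of NKX2-1 was -1.92 with an interval from -4.17 to 0.32, or -1.84 without that library. FOXA3 had 6, 3 and 30 counts with VGF and a log2 fold change of -0.35, with an interval from -2.54 to 1.83, or -0.26 without it. These mRNA levels are of bulk cultures, in which fewer cells with a transcript and less transcript per cell cannot be told apart.

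**Figure D5:**
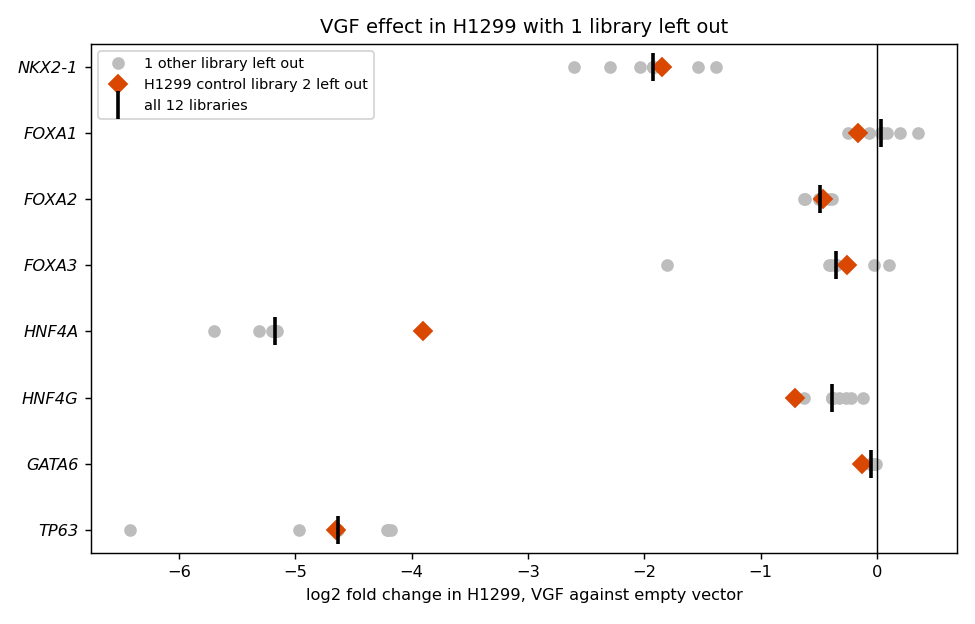
Log2 fold change of VGF against empty vector in H1299 for each factor with all 12 libraries (black bars), without H1299 control library 2 (orange diamonds) and without each other library in turn (grey points). HNF4A moves from -5.17 to -3.91 without that library, TP63 stays at -4.65, and FOXA1 changes sign around 0.

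The effect was then compared between the lines, as the change in H1299 minus that in A549. None of the 8 factors was called by edgeR, against 0.159% of all features (29 genes). DESeq2 called 1 of the 8, against 1.19% of features. At an unadjusted p under 0.05 edgeR had 2 of 8, against 2034 of 18228 features. These were TP63 (-4.49, SE 1.14, adjusted p = 0.196) and HNF4A (adjusted p = 0.301). HNF4A was the factor that DESeq2 called (adjusted p = 0.0142), and the call was lost without H1299 control library 2 (adjusted p = 0.253). By edgeR without that library, TP63 had -4.50 (adjusted p = 0.281) and the adjusted p of HNF4A was 0.502. HNF4G had -1.05 (adjusted p = 0.460) and FOXA2 had -0.46 (adjusted p = 0.470), or -1.37 and -0.43 without it. The median of the 8 was -0.76, against -0.02 over all features.

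Other genes around these factors were described by lists that were chosen with earlier results of these data known. The endoderm and gastrointestinal list held 30 genes, of which 19 were tested. With empty vector, 1 was higher and 16 were lower in H1299, against 38.5% higher and 38.6% lower of all tested features. The list median was -5.80 with genes at 0 counts set to the floor (-6.28 as fitted), against 0.01 over all features. PDZK1IP1, a gene of kidney and gut epithelium, was at 13.5 ± 1.94 CPM in A549 controls and had 0 counts in H1299 controls. APOH, a liver-type apolipoprotein gene, was at 19.7 ± 1.66 CPM in A549 controls and 0.0756 ± 0.131 CPM in H1299 controls, where all 10 counts came from library 2. SERPINA1, which encodes alpha-1 antitrypsin, was the gene called higher in H1299 (log2 fold change 1.20). With VGF in A549, 1 gene of the list was called, CPS1, a urea cycle enzyme gene, which rose by 1.35 (SE 0.144, adjusted p = 0.000953). Of all tested features, 0.406% were called higher there. The list median in A549 was -0.24, against 0.00 over all features, and 5 of the 19 tested genes had a positive change. In H1299 none was called.

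The lung differentiation list held 25 genes, of which 8 passed the filter on low counts. Of the 25, 9 had no count in A549 controls and 14 had none in H1299 controls. In H1299 against A549 with empty vector, 3 were higher and 3 lower, against 38.5% higher and 38.6% lower of all features. The share called was thus not above the background of 77.2%. The list median was -0.45, against 0.01 over all features. LAMP3, a lamellar body protein gene of alveolar type II cells, was 0.476 ± 0.270 CPM in A549 and 13.4 ± 4.60 CPM in H1299 (adjusted p = 1.48e-07). LPCAT1, an enzyme gene of surfactant lipid synthesis, was 178.5 ± 4.52 CPM in A549 and 31.7 ± 3.42 CPM in H1299 (adjusted p = 5.08e-12). None of the list was called under VGF in either line.

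Among 32 airway epithelial factors, 25 were tested, and 2 were higher and 19 lower in H1299 with empty vector, against 38.5% higher and 38.6% lower of all features. ELF3, an epithelial ETS factor, was at 191 ± 6.86 CPM in A549 and 0.548 ± 0.706 CPM in H1299 (adjusted p = 1.08e-10). Of its 72 counts in H1299 controls, 60 came from library 2, and the mean without that library was 0.142 CPM. Under VGF in A549, 2 of the 25 tested were called lower, against 0.384% of all tested features. SOX9, a distal lung progenitor factor, fell by 0.48 on the log2 scale, from 57.7 ± 5.08 to 41.5 ± 2.77 CPM (adjusted p = 0.0167). SOX9 was no longer called when A549 control library 1 (adjusted p = 0.0547) or A549 control library 3 (0.0527) was left out. SOX2, a factor of foregut and squamous epithelium, had 207, 210 and 179 counts in controls and 36, 85 and 56 with VGF. It fell by 1.81 (SE 0.349, adjusted p = 0.0379), and the call was lost in 6 of 12 fits with 1 library left out, with an adjusted p of up to 0.113 (without A549 control library 1). The others were A549 control libraries 2 and 3, A549 VGF libraries 1 and 3 and H1299 VGF library 1. No gene of this list was called in H1299.

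The squamous and basal list held 28 genes, with 17 tested. With empty vector, 7 were higher and 9 lower in H1299, and features in general were 38.5% higher and 38.6% lower. ITGA6, a basal integrin gene, was 143 ± 5.14 CPM in A549 and 695 ± 4.40 CPM in H1299. TRIM29, a basal epithelial gene, had 152 counts over the A549 controls and 0 in the H1299 controls. Of 35 paralogs of the 8 factors, 29 were tested, and 9 were higher and 15 lower in H1299. NKX2-6 had 0 counts in A549 controls and 3.82 ± 0.650 CPM in H1299, and FOXF2 was 7.48 ± 1.16 CPM in A549 with 0 counts in H1299 controls. None of the paralogs was called under VGF in either line.

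Genes whose log2 CPM followed each factor over the 12 libraries were named by the highest Pearson correlation among genes with at least 1 CPM in a group. The libraries share 2 lines, so a gene that differs between lines correlates with any factor that does. For HNF4A, SPDEF had r = 1.00, and 3511 of 13584 genes reached 0.95. FOXA2 had SLCO2B1 and ERMP1 at 0.999, and GATA6 had AP000311.1 at 0.995. FOXA1 had GALNT4 at 0.998 and MBIP at 0.996. Within the 6 libraries of a line MBIP had 0.978 in A549 and 0.95 in H1299, and GALNT4 had 0.857 and 0.985. In the same order, SPDEF had 0.44 and 0.999 with HNF4A, and AP000311.1 had 0.859 and 0.663 with GATA6. SPDEF had 3, 9 and 0 counts in H1299 controls and 0 in each H1299 VGF library. HNF4A had 4, 11 and 0 counts there and 0 with VGF. The 0.999 therefore rests on the few counts of H1299 control libraries 1 and 2. With FOXA2, SLCO2B1 had 0.678 and 0.893, and ERMP1 had 0.611 and 0.983. SLCO2B1 had only 0, 2 and 2 counts in H1299 controls and 0 in each H1299 VGF library. MBIP lies on chromosome 14, from 36298558 to 36320676, which is 195716 bases from NKX2-1 and 1269308 bases from FOXA1. It was 1 of 2520 genes of 13584 that reached 0.95 with FOXA1. MIPOL1, only 37623 bases from FOXA1, was at 1.85 FPKM in A549 controls and 1.47 FPKM in H1299 controls. With VGF it was at 2.06 and 2.13 FPKM. A part of position in these correlations was not tested.

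TP63 had MAP1B at 0.964, with 0.327 within A549 and 0.978 within H1299. HNF4G had AL022238.4 at 0.853, FOXA3 had ZNF467 at 0.891 and NKX2-1 had HLCS at 0.831. For NKX2-1, FOXA3 and HNF4G no gene reached 0.95. Correlations of such sparse counts are descriptions of these libraries.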

How the data were processed

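The authors deposited 1 table of counts, in whole numbers that are not normalised, and 1 table of FPKM, scaled by feature length and library size, for the same 26535 features. Per the submitters' processing notes, the build was GRCh38 and DESeq2 was used. Aligner, counter, annotation release and strand setting: not given in the sources used here. Another 18 lines of each table held no feature and were left out. Symbols turned into dates were restored by Ensembl ID for 27 features, and positions are from GENCODE release 29. The 8 factors, the gene lists and the tests were chosen with earlier results of these data known.

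Counts were fitted with edgeR 4.0.16 in R 4.3.3 (TMM scaling, filterByExpr by group, quasi-likelihood F test, Benjamini-Hochberg adjustment over 18228 features), with 4 group means and 12 libraries. There were 8 residual and 4.44 prior degrees of freedom. Standard errors were derived from the p-value and degrees of freedom, so intervals match the test. All 8 factors passed the filter. The script was tested on simulated counts. Alternatives were DESeq2 1.42.0, limma 3.58.1 (voom, and log2 of FPKM plus 1 or 0.1), relative log expression and upper-quartile scaling, no filter, each line alone, a replicate block and leaving out each library. Floors are 3 counts over a group, and floors and intervals of counts cover counting error only. All replicate pairs differed by more than sampling noise (chi-square per degree of freedom 7.82 to 21.8 over 12 pairs). Named genes were the 8 factors, VGF, up to 3 called genes per direction of a list with the largest fold change, the highest-FPKM genes of a list, and 2 genes per factor by likeness. Promoter windows are from RefSeq (GRCh38.p14). Some genes of the lists are not reported here.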

Additional observations from a re-analysis of the deposited data

Results flagged for a closer look

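The effect of VGF overexpression on VGF itself differed between the lines. The log2 fold change was lower in H1299 than in A549 by -5.52 (H1299 minus A549, adjusted p = 1.49e-09, edgeR quasi-likelihood interaction term), and VGF was higher in all 3 VGF libraries than in all controls of each line. The control level was 2.43 ± 0.373 CPM in A549 and 85.6 ± 7.26 CPM in H1299, and the level with VGF was 1283 ± 80.1 and 980.1 ± 119 CPM.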

How the results depend on the processing

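With empty vector, 5 of the 8 factors were called between the lines in all 21 alternatives. With VGF the leave-one-out count ran from 5 to 7. No factor was called for VGF in A549 in any alternative, and DESeq2 alone called any in H1299 (2) or for the difference of effects (1). Called features for VGF in A549 were 144, and 52 to 130 with 1 library left out, 63 with the replicate block, 69 without both H1299 control library 2 and A549 VGF library 2, 334 by voom, and 709 by DESeq2 (657 without H1299 control library 2). In H1299 they were 2, and 1 to 4 with 1 library left out, 1 with the block or by voom, 4 on log2(FPKM + 1) or with H1299 alone, 5 without the filter, and 132 and 80 by DESeq2 with and without that library. For the difference they were 29, then 18 to 36, 19 by voom, and 315 and 174 by DESeq2. The alternatives without those libraries were chosen after seeing the data, and the cause of these shifts was not tested. Upper-quartile scaling moved the median of all features between the lines by 0.11 and FPKM by up to 0.19.

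Signs reversed in effects that were not called. FOXA1 in H1299 was -0.15 by DESeq2 without H1299 control library 2, -0.014 on log2(FPKM + 0.1), -0.051 by voom, -0.011 with the block and -0.16 without both libraries. FOXA3 between lines with empty vector was -0.075 and -0.061 in the first and last of these. On FPKM plus 0.1 and plus 1, HNF4G was 0.12 and 0.084 between lines with VGF, 0.11 and 0.070 for VGF in H1299, and 0.0012 and 0.0019 for the difference. Leave-one-out ranges crossed 0 for FOXA2 with VGF in A549 (-0.083 to 0.021), GATA6 with VGF in A549 (-0.094 to 0.11), TP63 with VGF in A549 (-0.74 to 0.20), FOXA1 with VGF in H1299 (-0.25 to 0.35), FOXA3 with VGF in H1299 (-1.81 to 0.10), GATA6 in the difference (-0.16 to 0.039), NKX2-1 between lines with empty vector (-0.73 to 0.29) and FOXA3 between lines with empty vector (-0.28 to 0.48).

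Replicate numbers gave no pairing, since same-numbered deviations correlated at -0.15 to 0.02. Under the replicate block none of the 8 was called for VGF, the difference had 21 called features, and SOX2 in A549 was no longer called (adjusted p = 0.0784). The block within each line could not be fitted for comparisons between lines. Depth limits NKX2-1, FOXA3 and TP63, and HNF4A in H1299.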
